A study of Mus musculus with 24 samples.

Results

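The 8 genes followed were Sema3a, the neuropilins Nrp1 and Nrp2, the class A plexins Plxna1, Plxna2, Plxna3 and Plxna4, and Plxnd1. They were taken by gene symbol, and all 8 were found among the 55376 genes counted in each library. Sema3a was picked because its level was much lower in HSCs of young TTPΔARE mice than in those of young WT mice, so all values from that comparison are a description and carry no test. The bulk mRNA-seq data held 24 libraries of cells sorted from the bone marrow of untreated male mice. TTPΔARE mice are homozygous for a Zfp36 allele in every cell of the body that lacks an AU-rich element of the 3′UTR, and WT littermates were the controls. Young mice (4 to 5 months) gave 4 Y-WT and 4 Y-TTPΔARE libraries of HSCs, and middle-aged mice (1 year) gave 5 M-WT and 3 M-TTPΔARE libraries of HSCs. Another 4 Y-WT and 4 Y-TTPΔARE libraries were made from MPP3 cells, the multipotent progenitors that are biased towards granulocytes and monocytes. HSCs were sorted as Lineage- Sca1+ cKit+ cells that were CD34- Flk2- CD150+.

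Sema3a is a secreted guidance protein, known from growing axons and blood vessels, which it repels. It binds a neuropilin, a receptor with almost no signalling part of its own, and the neuropilin passes the signal on through a class A plexin, which acts on small GTPases and the cytoskeleton. Nrp1 and Nrp2 also bind VEGF family proteins and are found on endothelial cells, while Nrp1 is known on some dendritic cells and T cells. Plxnd1 is the receptor of Sema3e in blood vessels. Tristetraprolin, the protein made from Zfp36, binds AU-rich elements in the 3′UTR of mRNAs and hastens their decay, and its core site in RNA reads UAUUUAU.

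For that reason the 3′UTR of the longest protein-coding transcript of each gene in GENCODE M21 (GRCm38) was read for ATTTA, the core of an AU-rich element, and for TATTTAT, on the strand of the gene. Sema3a (chr5:13125414-13602565, plus strand) had a 3′UTR of 2962 bases with 11 ATTTA, a number reached by 13.0% of 3′UTRs of similar length. Nrp1 (chr8:128358604-128503363, plus strand) had a 3′UTR of 549 bases with 0 ATTTA. Plxnd1 (chr6:115954811-115995005, minus strand) had 929 bases, also with 0. The other 5 genes had between 1 ATTTA (Plxna3) and 8 (Plxna4). Among 20952 protein-coding genes, 64.7% held ATTTA in the 3′UTR and 27.4% held the longer motif. Among 3′UTRs of similar length the longer motif was held by 29.3% for Plxna3, 53.0% for Sema3a, 54.3% for Nrp2, 54.4% for Plxna1, 65.6% for Plxna2 and 72.5% for Plxna4, and by 14.6% for Nrp1 and 23.3% for Plxnd1. It stood 1 time in Sema3a, Nrp2, Plxna1, Plxna2, Plxna3 and Plxna4, and was not found in Nrp1 and Plxnd1. A match is a description of letters and not a binding site. The 6 matches are shown with their flanks because they are what the 6 transcripts share and Nrp1 and Plxnd1 lack, with TATTTAT in capitals.
Sema3a (chr5:13602432-13602460, plus strand): ttccgtatctgTATTTATcattgcatttc
Nrp2 (chr1:62817555-62817583, plus strand): atgccgacatcTATTTATtcccgcgtgtg
Plxna1 (chr6:89318633-89318661, minus strand): catgttcccgtTATTTATtccccgcctcc
Plxna2 (chr1:194813289-194813317, plus strand): aaaagcagcagTATTTATtattatatttt
Plxna3 (chrX:74343837-74343865, plus strand): tcctacccaccTATTTATtaatgtaattc
Plxna4 (chr6:32147419-32147447, minus strand): ggtggaaccgtTATTTATcccctggagtt

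The libraries held between 24261371 and 39934554 counts. Zfp36 itself, the gene that carries the allele, lay at 83.3 to 113 CPM (counts per 1000000 counts of the library, scaled by TMM factors over all libraries) in Y-TTPΔARE HSCs against 33.1 to 72.6 in Y-WT, at 91.5 to 110 in M-TTPΔARE against 43.6 to 64.2 in M-WT, and at 72.7 to 118 against 21.6 to 34.6 in MPP3 cells. The groups did not overlap in any of the 3 pairs, with Zfp36 higher in the libraries labelled TTPΔARE. Slamf1, which encodes CD150, a marker of the HSC sort, lay between 0.977 and 3.27 CPM in MPP3 libraries and between 55.5 and 138 in HSC libraries. The Y-WT HSC libraries were uneven. Replicates 1 and 4 held far more endothelial RNA than replicates 2 and 3: Stab2, a scavenger receptor of sinusoidal endothelium, lay at 119, 40.4, 39.0 and 187 CPM in replicates 1 to 4. The summed counts of 1736 olfactory and vomeronasal receptor genes were uneven in all groups, from 17.8 to 1048 per 1000000 counts of the library. They were highest in Y-WT HSC replicates 2, 3 and 4 (643 to 1048, against 59.9 in replicate 1), and in MPP3 cells stood out in Y-WT replicates 1 and 3 (183 and 300) and Y-TTPΔARE replicate 3 (507). Log2 fold changes of the 8 genes that rest on Y-WT HSCs are given below with and without replicates 1 and 4. Library numbers coincide with age and with cell type, which therefore cannot be told apart from the set of libraries. In bulk RNA, fewer cells of a type and less RNA per cell cannot be told apart either.

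**Figure D1:**
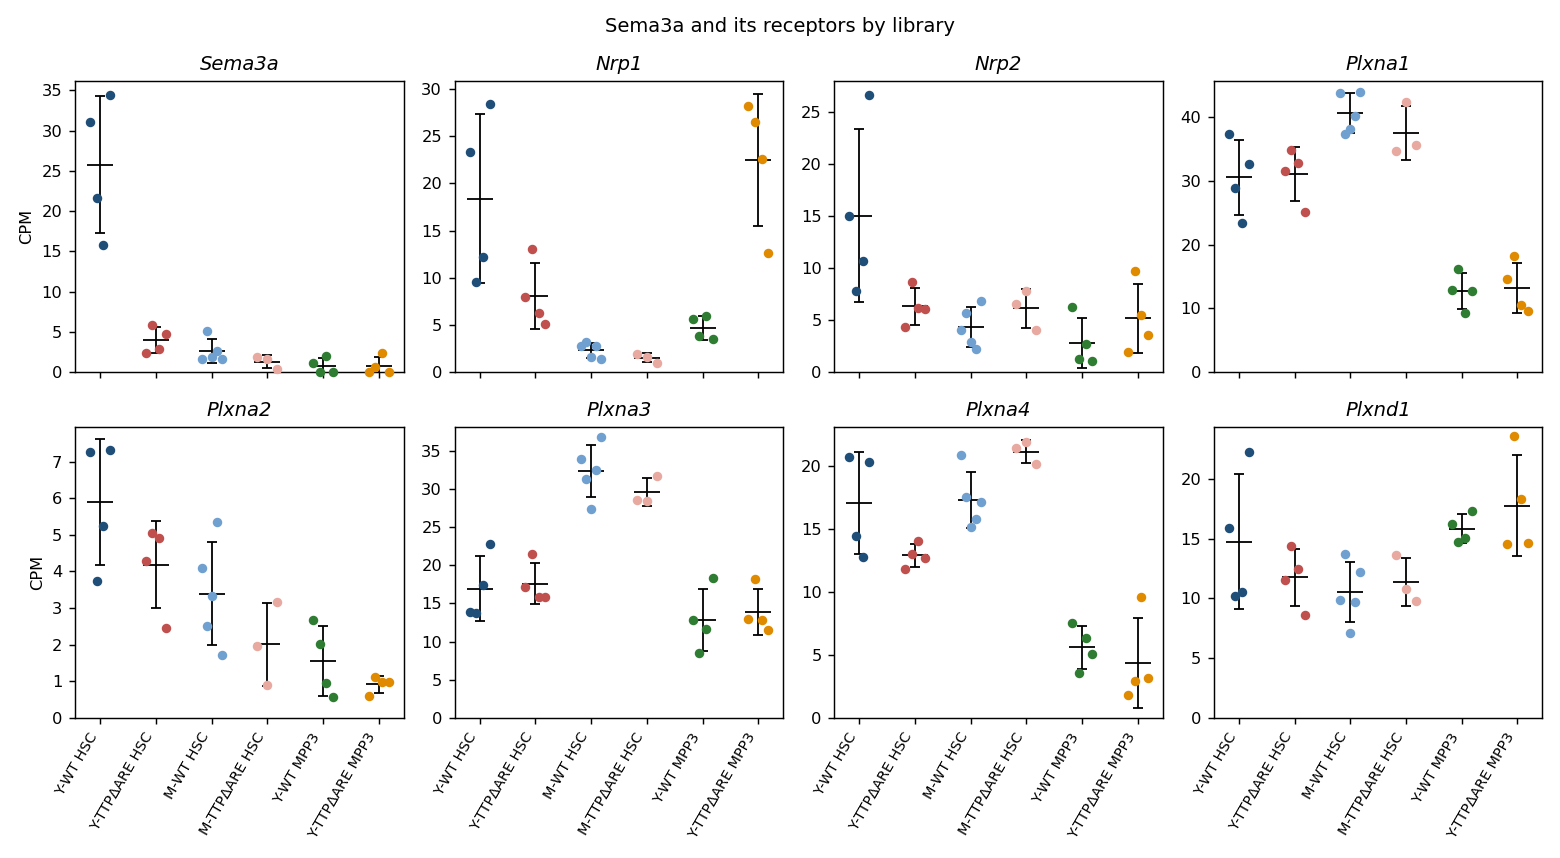
CPM of the 8 genes in each of the 24 libraries, 1 panel a gene and 1 point a library, with the mean and SD of each group in black; the y axes are linear and differ between panels. Sema3a is high in the 4 Y-WT HSC libraries (15.8 to 34.4 CPM) and at 5.84 CPM or less in the other 20, and Nrp1 has 2 high groups, Y-WT HSC and Y-TTPΔARE MPP3.

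Sema3a, the ligand, was measured at 31.1, 21.7, 15.8 and 34.4 CPM in the 4 Y-WT HSC libraries and at 2.41, 5.84, 2.85 and 4.78 CPM in the 4 Y-TTPΔARE HSC libraries. Every Y-WT library was above every Y-TTPΔARE library, with 413 to 1163 counts against 84 to 195. The fitted log2 fold change was -2.71 (SE 0.32). This is the difference for which the gene was chosen. The other groups were as low as Y-TTPΔARE HSCs or lower. M-WT HSCs had 1.68, 5.12, 1.93, 2.66 and 1.65 CPM of Sema3a, and M-TTPΔARE HSCs had 1.88, 1.62 and 0.348 CPM. The range of Y-TTPΔARE HSCs thus overlapped that of M-WT HSCs, whose range overlapped that of M-TTPΔARE HSCs. In MPP3 cells Sema3a was close to the limit of detection, at 1.14, 0, 1.99 and 0 CPM in Y-WT and 0.0651, 0.675, 2.35 and 0.0699 CPM in Y-TTPΔARE. The libraries with 0 counts, Y-WT MPP3 replicates 2 and 4, allow a level of up to 0.0913 and 0.0845 CPM, counting 3 reads as the floor and counting error alone. The 3 MPP3 libraries with the most Sema3a (36, 67 and 73 counts) were those highest in olfactory and vomeronasal receptor genes, whose part in the Sema3a level was not tested.

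The receptors differed less than the ligand between the genotypes of young HSCs. Nrp1 lay at 23.3, 9.51, 12.2 and 28.4 CPM in Y-WT HSCs and at 7.91, 13.1, 6.24 and 5.05 CPM in Y-TTPΔARE HSCs. The 2 groups overlapped, through Y-TTPΔARE replicate 2, and the log2 fold change was -1.20 (SE 0.37). Nrp2 lay at 15.0, 7.81, 10.7 and 26.7 CPM against 4.35, 8.68, 6.21 and 6.04 CPM, again with overlap and with a log2 fold change of -1.26 (SE 0.35). The plexins differed less. Plxna1 had a log2 fold change of 0.02 (SE 0.14) and Plxna3 of 0.04 (SE 0.17), while Plxna2 (-0.51, SE 0.27), Plxna4 (-0.42, SE 0.16) and Plxnd1 (-0.34, SE 0.25) lay on the negative side. The median over the 8 genes was -0.46 against -0.07 over all 24381 genes tested, of which 0.0123% were called higher and 0.0123% lower. None of these values is read as a test, because these libraries chose Sema3a.

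Endothelial markers had a median log2 fold change of -1.30 in Y-TTPΔARE HSCs (13 tested), beside the negative values of Sema3a, Nrp1 and Nrp2. The summed CPM of 14 endothelial markers lay between 527 and 1489 in Y-WT HSCs (median 948) and between 500 and 572 in Y-TTPΔARE HSCs (median 545). Part of this sum comes from Tie1, Kdr and Emcn, which HSCs also express. Of the 14 markers, 4 had every Y-TTPΔARE library below every Y-WT library, namely Flt4, Stab2, Plvap and Ptprb, and the rest overlapped. Fabp4 in Y-WT replicates 2 and 3 (40.0 and 42.2 CPM) lay below all Y-TTPΔARE libraries (48.4 to 86.8 CPM). How many of all genes lie without overlap was not counted, here or for the marker lists and family genes below. Lyve1, of lymphatic and some sinusoidal endothelium, was under 1 CPM in every library of both groups. When Y-WT replicates 1 and 4 were left out, the log2 fold change was -2.18 for Sema3a, -0.37 for Nrp1 and -0.49 for Nrp2, 0.31 for Plxna1, -0.048 for Plxna2, 0.23 for Plxna3, -0.021 for Plxna4 and 0.24 for Plxnd1. These libraries were left out after their values had been seen. Divided by the CPM of Stab2, Sema3a lay at 0.184 to 0.536 in Y-WT and at 0.0858 to 0.169 in Y-TTPΔARE, without overlap. Nrp1 (0.152 to 0.313 against 0.179 to 0.344) and Nrp2 (0.126 to 0.273 against 0.155 to 0.229) overlapped. These ratios rest on 1 marker and on the libraries that chose Sema3a, and are a description. The separation of Sema3a depends on the marker: with Cdh5 or Fabp4 as the divisor it held, and with Flt4 or Plvap the groups overlapped. For Flt4, Y-WT replicate 4 had 34.4 CPM of Sema3a beside 82.8 of Flt4, and Y-TTPΔARE replicate 4 had 4.78 beside 9.53. For Plvap, Y-WT replicate 1 had 31.1 beside 214, and Y-TTPΔARE replicate 2 had 5.84 beside 39.1. The part of endothelial RNA in the levels of Sema3a, Nrp1 and Nrp2 was not tested.

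**Figure D2:**
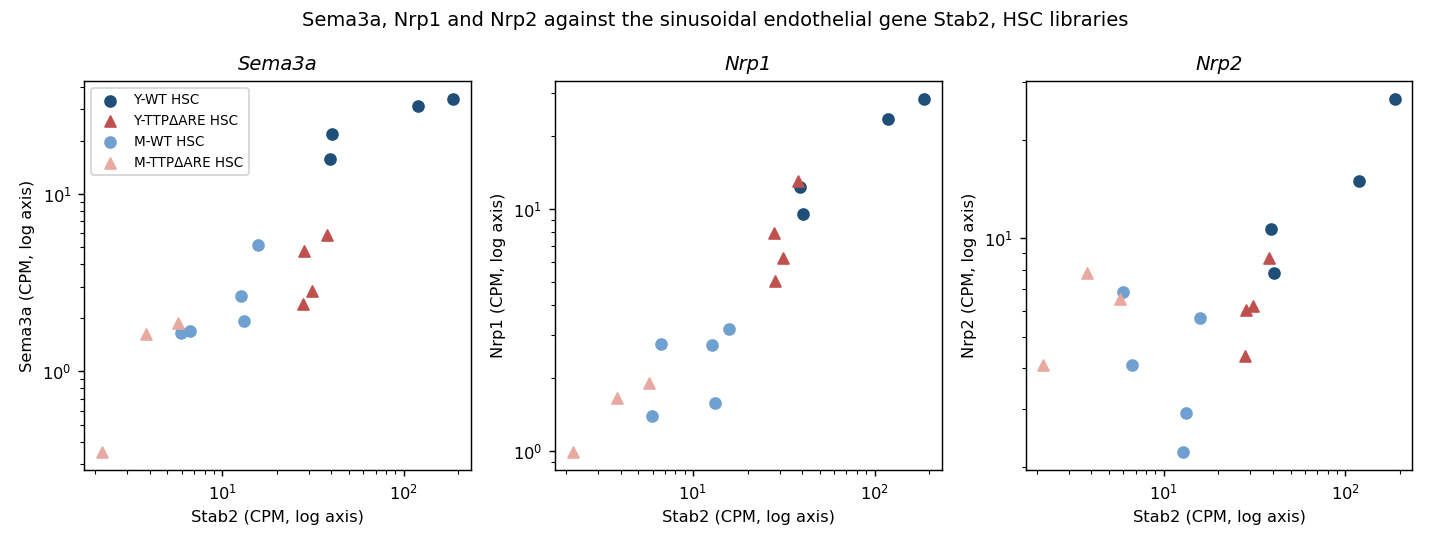
Sema3a, Nrp1 and Nrp2 (CPM, log axis) against Stab2 (CPM, log axis) in the 16 HSC libraries, 1 point a library, circles WT and triangles TTPΔARE. Stab2 lies between 39.0 and 187 CPM in Y-WT, 28.0 and 38.0 CPM in Y-TTPΔARE, 5.97 and 15.8 CPM in M-WT and 2.18 and 5.72 CPM in M-TTPΔARE, and the middle-aged libraries are lower than the young ones in Nrp1 as well.

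In middle-aged HSCs none of the 8 genes was called between M-TTPΔARE and M-WT. A call needed an average logCPM above 1.5, more than 1.2-fold change, and p below 0.05 in edgeR's quasi-likelihood test after Benjamini-Hochberg adjustment. This comparison shares no library with the one that chose the genes. DESeq2 called 0 as well, and at an unadjusted p under 0.05 edgeR had 1, Plxna4. Over all 21136 genes tested, 0.700% were called higher and 0.710% lower (148 and 150 genes, or 212 and 125 with library totals in place of TMM factors). Plxna4, which relays class 3 and class 6 semaphorin signals, lay at 20.9, 17.6, 15.1, 15.8 and 17.1 CPM in M-WT and at 21.4, 21.9 and 20.1 CPM in M-TTPΔARE. The groups overlapped in 1 M-WT library, and the log2 fold change of 0.33 (SE 0.11) had an adjusted p of 0.173. Sema3a had a log2 fold change of -0.97 (SE 0.53, adjusted p = 0.389) with 65 to 192 counts a library in M-WT and 12 to 62 in M-TTPΔARE, and it stayed negative and uncalled under 17 alternatives, between -1.99 and -0.54. Nrp1 lay at 2.77, 3.17, 1.57, 2.74 and 1.40 CPM in M-WT and at 1.91, 1.65 and 0.987 CPM in M-TTPΔARE, which overlapped (log2 fold change -0.58, SE 0.34, adjusted p = 0.425). Nrp2 had a positive value, 0.54 (SE 0.33, adjusted p = 0.457). Plxna1 at -0.08 (SE 0.09) and Plxna3 at -0.10 (SE 0.09) had the smallest standard errors of the 8. Plxna2 stood at -0.74 (SE 0.42) and Plxnd1 at 0.15 (SE 0.20). The median of the 8 was -0.09 against 0.01 over all genes tested. Endothelial transcripts were lower in M-TTPΔARE too. Of the 14 markers, Flt4, Stab2, Plvap, Cldn5 and Fabp4 had every M-TTPΔARE library below every M-WT library, and Fabp4 (log2 fold change -1.47, adjusted p = 0.0273, edgeR) and Cldn5 (-0.66, adjusted p = 0.0368) were called. Stab2 was 2.18 to 5.72 CPM in M-TTPΔARE against 5.97 to 15.8 in M-WT, and the sum of the 14 was 494 to 503 against 520 to 611 CPM. Of 10 macrophage markers Mrc1 and Vcam1 were called lower, while Axl had every M-TTPΔARE library above every M-WT library. The median log2 fold change of the 10 was 0.0037, and their sums overlapped (61.8 to 70.9 CPM against 63.6 to 86.2). The part of endothelial or macrophage RNA in the Sema3a and Nrp1 values was not tested.

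In MPP3 cells Nrp1 rose in Y-TTPΔARE, and it was the 1 gene of the 8 to be called. Nrp1 lay at 5.59, 3.77, 5.98 and 3.47 CPM in Y-WT and at 28.1, 26.5, 22.5 and 12.6 CPM in Y-TTPΔARE. All 4 Y-TTPΔARE libraries were above all 4 Y-WT libraries, and replicate 4 was the lowest of them. The log2 fold change was 2.27 (SE 0.30, adjusted p = 0.00323, edgeR). With each library left out in turn it lay between 2.14 and 2.46 and was called each time. Of all 19023 genes tested, 1.57% were called higher and 0.137% lower. Nrp2, the other neuropilin, lay at 6.26, 1.31, 2.74 and 1.04 CPM against 1.95, 9.70, 5.47 and 3.60 CPM, which overlapped (log2 fold change 0.88, SE 0.64, adjusted p = 0.607). The plexins, which carry the signal into the cell, did not pass the test. Plxna1 stood at 0.08 (SE 0.22), Plxna3 at 0.15 (SE 0.24), Plxnd1 at 0.20 (SE 0.18), Plxna4 at -0.29 (SE 0.53) and Plxna2 at -0.73 (SE 0.55). Sema3a had 103 counts over the 4 Y-WT libraries and 99 over the 4 Y-TTPΔARE libraries, and its log2 fold change of 0.07 had an SE of 1.58. The median of the 8 was 0.11 against 0.04 over all genes tested.

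Dendritic cell transcripts moved with Nrp1 in MPP3 cells. The summed CPM of 8 dendritic cell markers lay between 171 and 252 in Y-WT MPP3 cells (median 193) and between 1651 and 2798 in Y-TTPΔARE MPP3 cells (median 2249), most of it H2-Ab1, an MHC class II gene. Of the 8, 7 had every Y-TTPΔARE library above every Y-WT library, and 6 were called higher, namely Xcr1, Clec9a, Itgax, Cd209a, Zbtb46 and H2-Ab1. Xcr1, a chemokine receptor of type 1 conventional dendritic cells, lay at 1.40, 0.365, 0.952 and 3.01 CPM in Y-WT and at 79.2, 42.4, 59.3 and 78.7 CPM in Y-TTPΔARE (log2 fold change 5.52, SE 0.52, adjusted p = 4.78e-04, edgeR). Siglech, the marker of plasmacytoid dendritic cells, stayed at 1.61 CPM or less in Y-TTPΔARE. The markers ordered the 4 Y-TTPΔARE libraries differently: replicate 4, the lowest in Nrp1 (12.6 CPM), was the lowest in Zbtb46 (20.9 CPM) and Ccr9 (7.87 CPM), in neither place in Xcr1, Itgax, Cd209a and Siglech, and the highest in Clec9a (38.3 CPM) and H2-Ab1 (2604 CPM). Of 10 macrophage markers 1, Adgre1, was called higher, and 3 (C1qb, Adgre1 and Vcam1) had every Y-TTPΔARE library above every Y-WT library. The macrophage sum was 258 to 416 CPM against 75.9 to 282, and the median log2 fold change of the 10 was 1.58. Of 12 endothelial markers tested 1, Tie1, was called lower, while Kdr and Plvap lay higher without overlap. Their median log2 fold change was 0.94, and the sums of all 14 barely overlapped (144 to 182 CPM in Y-TTPΔARE against 182 to 222 in Y-WT). Of 6 T cell markers tested 0 were called, with a median of 1.30. Cd3d, under 1 CPM in every library, and Cd8a lay higher without overlap. The part of dendritic cell, macrophage, endothelial or T cell RNA in the Nrp1 level was not tested.

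**Figure D3:**
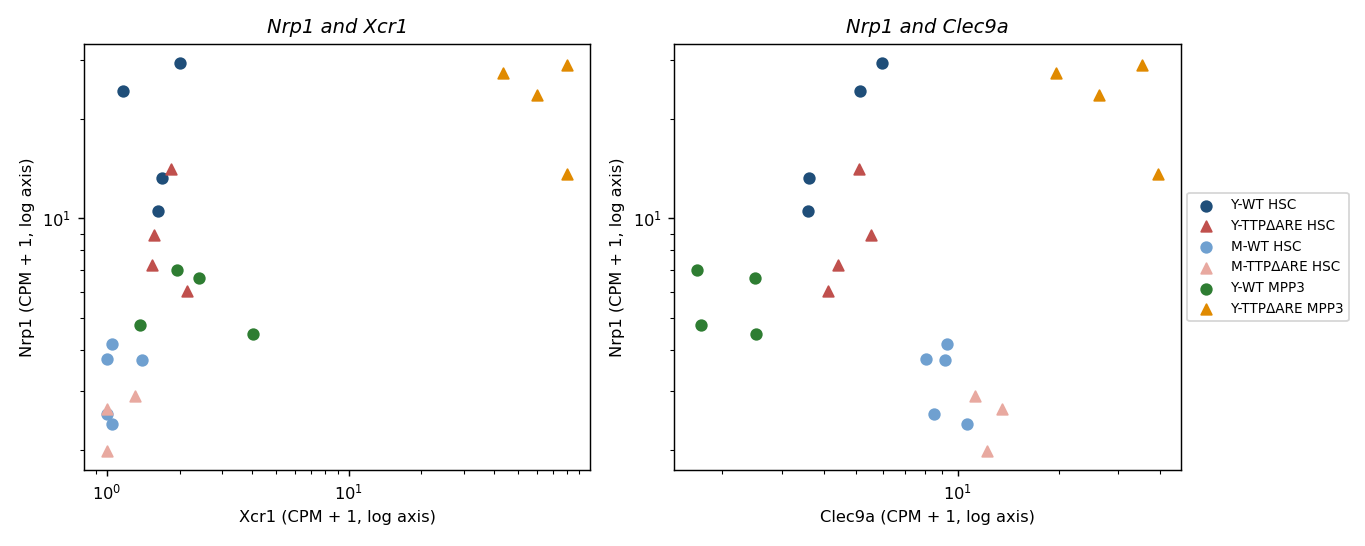
Nrp1 (CPM + 1, log axis) against the dendritic cell genes Xcr1 and Clec9a (CPM + 1, log axis) in the 24 libraries, 1 point a library, circles WT and triangles TTPΔARE. The 4 Y-TTPΔARE MPP3 libraries stand apart at 42.4 CPM or more of Xcr1, while the Y-WT HSC libraries reach 28.4 CPM of Nrp1 with 1.01 CPM or less of Xcr1.

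The effect of TTPΔARE on Nrp1 differed between MPP3 cells and middle-aged HSCs (M-HSCs). Its log2 fold change in MPP3 cells minus that in M-HSCs was 2.83 (SE 0.47, adjusted p = 0.00696, edgeR interaction term over 16 libraries), with all 4 Y-TTPΔARE libraries above the Y-WT range in MPP3 cells and all 3 M-TTPΔARE libraries within or below the M-WT range in HSCs. Of all 24553 genes tested, 0.505% were called higher and 0.0896% lower in this difference. Cell type, age and library set change together in it. In the same difference 3 of 8 dendritic cell markers were called higher (Zbtb46, Clec9a and H2-Ab1), and of 14 endothelial markers Fabp4 was called higher and Tie1 lower. Of 10 macrophage markers Vcam1 was called higher, and the median of the 10 was 1.77. Their part in the Nrp1 difference was not tested. None of the other 7 genes was called: the differences were 0.98 for Sema3a (SE 1.71), 0.32 for Nrp2 (SE 0.80), 0.01 for Plxna2 (SE 0.77), -0.65 for Plxna4 (SE 0.56), 0.24 for Plxna3 (SE 0.26), 0.16 for Plxna1 (SE 0.23) and 0.05 for Plxnd1 (SE 0.28). For the 3 genes with an SE above 0.7, a difference of several-fold would not have been seen. Differences of the others, Plxna4 (SE 0.56) above all, could have been missed as well.

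**Figure D4:**
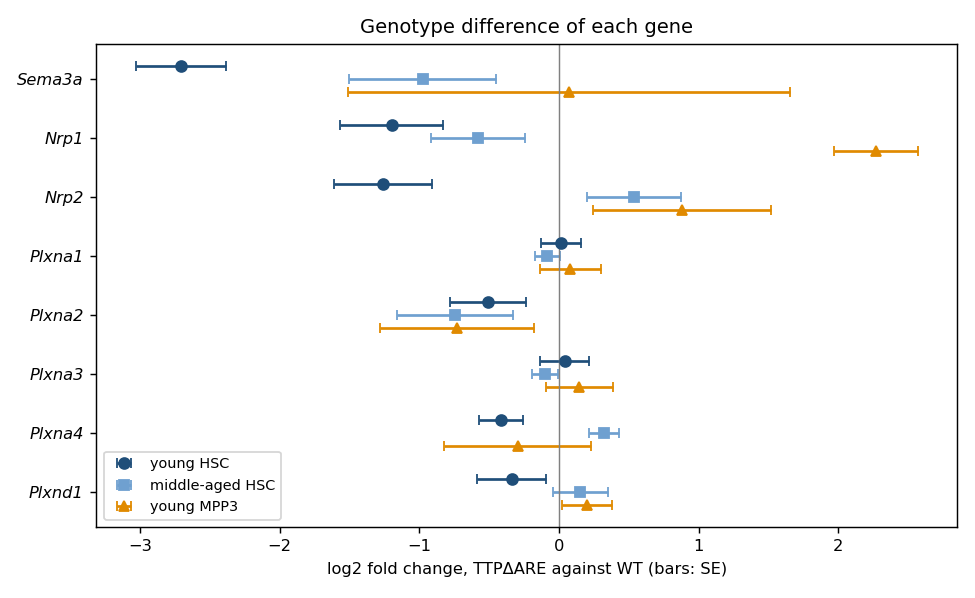
Log2 fold change of TTPΔARE against WT for the 8 genes in young HSCs (circles), middle-aged HSCs (squares) and young MPP3 cells (triangles); bars are 1 SE. Nrp1 lies at -1.20, -0.58 and 2.27, and Sema3a at -2.71, -0.97 and 0.07 with a bar of 1.58 in MPP3 cells.

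Most of the receptors were lower in MPP3 cells than in HSCs of young WT mice. Of the 7 receptors, 5 were lower in Y-WT MPP3 cells than in Y-WT HSCs by edgeR's quasi-likelihood test, against 7.69% of all 22816 genes called lower and 14.5% called higher. The receptors were taken as neuropilins and plexins, but the test uses the Y-WT HSC libraries on which Sema3a was chosen and is not independent of that choice. Plxna1 fell from 37.3, 28.8, 23.4 and 32.6 CPM in HSCs to 12.9, 16.2, 9.31 and 12.7 CPM in MPP3 cells, without overlap (log2 fold change -1.24, SE 0.19, adjusted p = 0.00146). Plxna4 fell from 20.8, 14.5, 12.8 and 20.3 CPM to 7.53, 3.53, 6.31 and 5.04 CPM, also without overlap (-1.57, SE 0.28, adjusted p = 0.00326). Nrp1 (-1.93, SE 0.38, adjusted p = 0.00557), Nrp2 (-2.35, SE 0.61, adjusted p = 0.0206) and Plxna2 (-1.90, SE 0.48, adjusted p = 0.0186) were the other 3. Plxna3 (-0.37, SE 0.24) and Plxnd1 (0.13, SE 0.24) did not pass the test, and the value of Plxnd1 turned to -0.09 with library totals as the scale. Sema3a, given as a description since it was chosen on the same Y-WT HSC libraries, had a log2 fold change of -4.98 (SE 0.95), or -4.42 without Y-WT HSC replicates 1 and 4. Without Y-WT HSC replicates 1 and 4, 2 receptors were called: Plxna1, still lower at -0.98 (adjusted p = 0.0127), and Plxnd1, now higher at 0.67 (adjusted p = 0.0200). Plxna4 was then at -1.19 (adjusted p = 0.0591), Nrp1 at -1.11 (adjusted p = 0.0677), Plxna2 at -1.45 (adjusted p = 0.172), Nrp2 at -1.57 (adjusted p = 0.181) and Plxna3 at -0.22 (adjusted p = 0.550). Leaving out Y-WT HSC replicate 4 alone, or Y-WT MPP3 replicate 3 alone, brought the 5 to 3, with Nrp2 and Plxna2 lost. All 13 endothelial markers tested were lower in MPP3 cells, a sum of 182 to 222 CPM against 527 to 1489. Library totals in place of TMM factors turned the calls from 3314 higher and 1755 lower to 1705 higher and 3254 lower and moved the median of all genes from -0.16 to -0.38 on the log2 scale, and the same number of receptors, 5, was called.

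Both neuropilins were lower and Plxna3 was higher in M-WT than in Y-WT HSCs, while a smaller rise of Plxna1 depended on the fit. Age and library set cannot be told apart in this comparison. These tests, too, use the Y-WT HSC libraries on which Sema3a was chosen and are not independent of that choice. Of the 7 receptors, 2 were lower (Nrp1 and Nrp2) and 2 were higher (Plxna1 and Plxna3) in M-WT than in Y-WT HSCs, where 3.68% of all 22280 genes were called lower and 8.38% higher (821 and 1868 genes, or 1174 and 1106 with library totals). Nrp1 fell from 9.51 to 28.4 CPM in the 4 young libraries to 1.40 to 3.17 CPM in the 5 middle-aged ones, without overlap (log2 fold change -3.02, SE 0.35, adjusted p = 4.85e-04, edgeR). Nrp2 fell from 7.81 to 26.7 CPM to 2.21 to 6.83 CPM, also without overlap (-1.83, SE 0.39, adjusted p = 0.0101). Plxna3 rose from 13.9, 13.8, 17.4 and 22.8 CPM to 33.9, 31.4, 27.5, 32.6 and 36.8 CPM (0.89, SE 0.16, adjusted p = 0.00432). Plxna1 went from a mean of 30.5 ± 5.90 CPM (SD, n = 4) to 40.6 ± 3.08 CPM (SD, n = 5), with a log2 fold change of 0.38 (SE 0.11, adjusted p = 0.0408). The call of Plxna1 was kept under 7 of 19 alternatives. It was lost with library totals, by the likelihood ratio test, with all 24 libraries in the fit and with the summed olfactory and vomeronasal receptor genes as a covariate (0.17, adjusted p = 0.492), each of which left 3 receptors called. It was also lost when Y-WT HSC replicate 2, 3 or 4 or any 1 of the 5 M-WT libraries was left out, with adjusted p up to 0.112. Without Y-WT replicates 1 and 4 the same 4 receptors passed: Nrp1 at -2.27, Nrp2 at -1.14, Plxna3 at 1.01 and Plxna1 at 0.60. Plxna2 (-0.84, SE 0.32, adjusted p = 0.0814), Plxnd1 (-0.53, SE 0.25, adjusted p = 0.144) and Plxna4 (-0.02, SE 0.15) did not pass, and stood at -0.45, -0.029 and 0.30 without Y-WT replicates 1 and 4. Plxna2 was called with DESeq2 and without M-WT replicate 4. Sema3a, as a description, stood at -3.34 (SE 0.35), or -2.89 without these replicates. Beside these values, 8 of 13 endothelial markers tested were lower in M-WT and 1, Tie1, was higher, and Stab2 was 5.97 to 15.8 CPM in M-WT against 39.0 to 187 in Y-WT. The part of endothelial RNA in the fall of Nrp1 and Nrp2 was not tested. The comparisons by cell type and by age share the 4 Y-WT HSC libraries.

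The plexins covered different spans over the 24 libraries. Plxna1 ran from 9.31 to 43.9 CPM and Plxna4 from 1.76 to 21.9 CPM, and for both genes the 8 MPP3 libraries lay below all 16 HSC libraries. Plxna3 ran from 8.49 to 36.8 CPM, with the middle-aged HSC libraries of both genotypes above all 16 others. Plxnd1, from 7.11 to 23.6 CPM, had its lowest library in M-WT HSCs and its highest in Y-TTPΔARE MPP3 cells. Plxna2 was low throughout, from 0.564 to 7.31 CPM. Levels of different genes are compared per kilobase of exon, which sets aside that a longer transcript yields more reads. In Y-WT HSCs Plxna1 was the highest (3.37 ± 0.65 CPM per kilobase, SD, n = 4), followed by Plxna3 (2.15 ± 0.54), Plxnd1 (2.02 ± 0.77), Nrp1 (1.88 ± 0.92), Sema3a (1.86 ± 0.62), Nrp2 (1.27 ± 0.70) and Plxna4 (1.21 ± 0.29), each overlapping the next in its range over libraries. Plxna2 came last (0.343 ± 0.10) and lay apart from Plxna4. In M-WT HSCs Plxna1 (4.49 ± 0.34, SD, n = 5) and Plxna3 (4.12 ± 0.44) overlapped and lay above Plxnd1 (1.44 ± 0.35) and Plxna4 (1.23 ± 0.16). Nrp2 (0.367 ± 0.16), Nrp1 (0.238 ± 0.081), Plxna2 (0.198 ± 0.082) and Sema3a (0.188 ± 0.11) formed the lower end and overlapped in turn. In Y-WT MPP3 cells Plxnd1 led (2.17 ± 0.16, SD, n = 4), before Plxna3 (1.63 ± 0.52) and Plxna1 (1.41 ± 0.31), with overlap, and Nrp1 followed at 0.481 ± 0.13. In Y-TTPΔARE MPP3 cells Nrp1 stood at 2.29 ± 0.71, and its range overlapped those of Plxnd1 (2.44 ± 0.58) and Plxna3 (1.76 ± 0.38). Sema3a, Nrp2 and Plxna2 were among the 4 lowest of the 8 genes in all 6 groups.

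**Figure D5:**
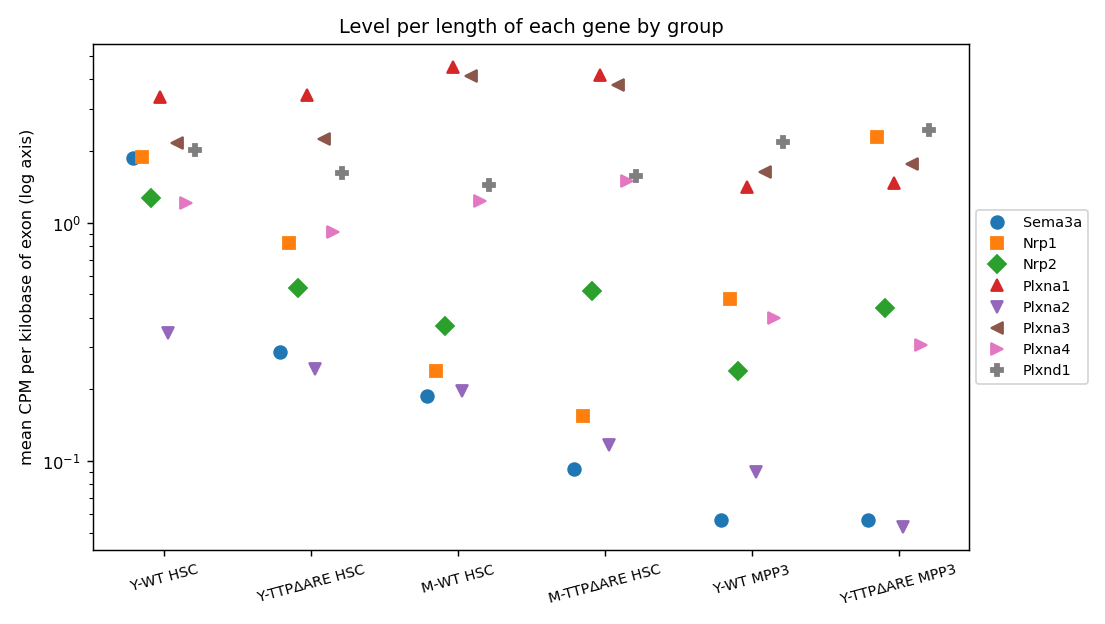
Mean level of each of the 8 genes in CPM per kilobase of exon (log axis) in the 6 groups; symbols mark genes. Plxna1, Plxna3 and Plxnd1 stay between 1.41 and 4.49 in all groups, while Sema3a runs from 1.86 in Y-WT HSCs to 0.0566 in Y-WT MPP3 cells.

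The genes whose log2 CPM ran most like that of Sema3a over the 24 libraries were, among 13438 genes, Enpp6 (Pearson's r = 0.95), Pxdn (0.94), Adamts5 (0.93), Ptprb (0.93) and Abcc9 (0.92). Ptprb encodes a tyrosine phosphatase of endothelial cells and Pxdn an enzyme of the basement membrane. Among the receptors, Nrp2 was the most like Sema3a (r = 0.80), followed by Plxna2 (0.71) and Plxna4 (0.70), and Nrp1 was far from it (0.24). Nrp1 ran most like Ifi204 (0.90), Fcgr2b (0.90), Acvrl1 (0.90), Zfp366 (0.90) and Ifi213 (0.88). Zfp366 is known from dendritic cells and Acvrl1 from endothelium. Over the 16 HSC libraries alone Nrp1 and Sema3a were alike (r = 0.89). The 5 genes most like Nrp1 were then Dab2 (0.98), Kcnj8 (0.96), Nid1 (0.96), Mmrn2 (0.95) and Stab2 (0.95), which share none with the list over 24 libraries. Those most like Sema3a were Flt4 (0.95), Tspan15 (0.93), Ptprb (0.93), Enpp6 (0.93) and Dab2 (0.93). These values are a description: the libraries share depth, scaling and the endothelial content given above, Y-WT HSC replicates 1 and 4 included.

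The wider family was read through 57 further genes. In middle-aged HSCs 3 of 54 tested were called. Plxnb2, a class B plexin that binds class 4 semaphorins, fell from 131, 108, 127, 104 and 113 CPM in M-WT to 52.0, 58.1 and 51.8 CPM in M-TTPΔARE, without overlap (log2 fold change -1.08, SE 0.09, adjusted p = 4.35e-04, edgeR). Sema6b, a membrane semaphorin known to bind Plxna4, fell to a lesser degree (-0.49, SE 0.11, adjusted p = 0.0453). Vegfa, a ligand of Kdr that also binds neuropilins, rose (0.55, SE 0.12, adjusted p = 0.0458). The calls of Sema6b and Vegfa stood close to the threshold: that of Sema6b was lost with any 1 of the 8 libraries left out, and that of Vegfa with any 1 but M-WT replicate 1, whereas Plxnb2 kept its call each time. None of 5 other class 3 semaphorins and none of 22 intracellular signalling genes was called, with median log2 fold changes of 0.11 and -0.01. Plxnb2 was lower without overlap in the other genotype comparisons too, though not called there. It lay at 35.4 to 35.9 CPM in Y-TTPΔARE HSCs against 41.5 to 54.3 in Y-WT. In MPP3 cells it lay at 33.5 to 58.3 CPM in Y-TTPΔARE against 61.8 to 89.0 in Y-WT. In MPP3 cells 1 of 51 was called: Sema4a, a membrane semaphorin known from dendritic cells, rose from 3.43, 1.95, 6.75 and 5.75 CPM to 58.4, 42.1, 38.7 and 37.7 CPM (3.32, SE 0.36, adjusted p = 0.00104, edgeR). Its rise stood beside that of the dendritic cell markers given above. Sema4a was also higher without overlap, though not called, in Y-TTPΔARE HSCs (7.00 to 13.5 CPM against 2.53 to 5.94 in Y-WT). There the median log2 fold change of the 8 dendritic cell markers was 0.0058, and their sums overlapped (208 to 357 CPM against 180 to 239). In middle-aged HSCs Sema4a overlapped (1.47 to 4.00 CPM in M-TTPΔARE against 0.863 to 1.89 in M-WT). The part of dendritic cell RNA in the Sema4a level was not tested. In the difference between MPP3 cells and M-HSCs Met, the receptor of hepatocyte growth factor, was the 1 gene of 56 to be called (1.52, SE 0.32, adjusted p = 0.0344), with all 4 Y-TTPΔARE MPP3 libraries above the Y-WT mean and all 3 M-TTPΔARE libraries below the M-WT mean. That call was lost with 10 of the 16 libraries left out in turn, with adjusted p up to 0.152 (without M-TTPΔARE replicate 3). In young HSCs 0 of 54 passed the quasi-likelihood test of edgeR, 14 had an unadjusted p under 0.05, DESeq2 called 8 and the likelihood ratio test 7. Over all 24381 genes tested, DESeq2 called 304 and the likelihood ratio test 146. An unadjusted p under 0.05 was met by 1064 of them, there with the limits on fold change and logCPM applied as well. Between the WT groups 20 of 56 were called by cell type, 8 higher and 12 lower in MPP3 cells, and 11 of 55 by age, 4 higher and 7 lower in M-WT HSCs. Over all genes tested, 14.5% were called higher and 7.69% lower by cell type, and 8.38% higher and 3.68% lower by age. Without Y-WT HSC replicates 1 and 4 the family counts were 12 and 11 of 57, beside 4045 of 27480 and 3169 of 28233 over all genes. With all libraries Flt1, Flt4 and Kdr, the VEGF receptors of endothelium, were called lower in both.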

How the data were processed

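Per the labels and the study's methods, reads were trimmed by the authors (Cutadapt through Trim Galore!), mapped to mm10 by STAR with a GENCODE M22 index, and summed per gene by featureCounts. The deposited values are raw counts without normalization, 1 table of 55376 genes a library. Strand and multimapping settings are not given in the sources used here, and the labels and the methods name different SMARTer kits. The labels write the allele TTPdeltaARE in titles, here TTPΔARE. They do not say that replicates came from separate mice, so p-values measure the spread between these libraries.

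The analysis ran in R 4.3.3. The quasi-likelihood test of edgeR 4.0.16 was used with TMM factors and filterByExpr (minimum count 10, minimum total 15), fitted over all genes with the libraries of the groups compared, and Benjamini-Hochberg adjustment. The limits of a call (adjusted p under 0.05, fold change over 1.2, average logCPM over 1.5) are those of the study. The study used 3 of the 4 Y-TTPΔARE MPP3 libraries without naming them, and all 4 were kept here. DESeq2 1.42.0 was an alternative. The edgeR test was also run on simulated counts that gave every gene the same dispersion. Those counts lack the uneven endothelial and receptor gene content described above, and so cannot show how the test handles it. CPM in the text use TMM factors over 24 libraries, and correlations use log2 CPM with a prior count of 2. All 8 genes were named in each comparison, and of the wider lists every gene called in a genotype comparison. The 8 genes, the gene lists and the marker lists were chosen with earlier results of these data known, and Stab2, Xcr1 and other single markers were picked after their values were seen. Gene positions and 3′UTRs are those of GENCODE M21 on GRCm38.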

Additional observations from a re-analysis of the deposited data

Results flagged for a closer look

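The effect of TTPΔARE differed between MPP3 cells and middle-aged HSCs for 2 genes, as tested by the interaction term of edgeR: Nrp1, by 2.83 on the log2 scale, and Met, by 1.52. For 3 pairs of effects every TTPΔARE library lay on one side of the WT mean of log2 CPM in 1 comparison and on the other side in the other, and these differences were not tested. Nrp1 was below the Y-WT mean in all Y-TTPΔARE HSC libraries and above it in all Y-TTPΔARE MPP3 libraries, a difference of 3.47 between the log2 fold changes. Nrp2 was below the WT mean in young and above it in middle-aged TTPΔARE HSCs, a difference of 1.80, and Plxna4 likewise, by 0.74. For Nrp2 this holds on the log2 scale alone, since M-TTPΔARE replicate 3 (4.09 CPM) was under the M-WT mean of CPM (4.35). The young HSC values of these pairs come from the libraries that chose the genes. Over the groups of 4 or 5 libraries, no library stood apart from its group in any of the 8 genes by Dixon's criterion, which chance would meet in about 1 of 20 groups.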

How the results depend on the processing

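Of 1005 log2 fold changes of the 8 genes and the called family genes under alternatives, 903 kept their direction and their side of the limits or, where untested, their value within 1 SD, and 39 changed sign. Nrp1 was called in MPP3 cells and in the difference between MPP3 cells and M-HSCs under every alternative run. The number of the 8 genes called in M-HSCs (0) and in MPP3 cells (1) was the same in each, and the cause of the moves below was not tested. The replicate numbers did not pair the libraries: same-numbered libraries of WT and TTPΔARE had correlations of deviations between -0.145 and 0.211, and 1 of 8, 0 of 6 and 2 of 8 libraries were closest to their own number in young HSCs, M-HSCs and MPP3 cells. By age these were -0.122 to 0.0849 and 2 of 8. By cell type all 4 were positive, 0.025 to 0.18, but 2 were under 0.1, and 4 of 8 libraries were closest to their own number. With the replicate block, 108 genes were called in M-HSCs, 79 in the difference and 1579 with age, and Plxnd1 stood at -0.032 in the difference; Sema6b and Vegfa were no longer called in M-HSCs.
Genes called in M-HSCs were 298, against 823 with DESeq2, 842 with no filter on low counts, 53 with all 24 libraries in the fit, 94 with the receptor gene covariate and 68 to 299 with a library left out. In MPP3 cells they were 325, against 766 with DESeq2, 538 by the likelihood ratio test, 1244 with all 24 libraries and 185 to 347 with a library left out. In young HSCs they were 6, against 304 with DESeq2, 146 by the likelihood ratio test, 73 with no filter, 18 with all 24 libraries, 29 with the covariate, 18 without Y-WT replicates 1 and 4 (an alternative chosen after the data were seen) and 0 to 12 with a library left out. In the difference they were 146, against 523 with DESeq2, 223 by the likelihood ratio test and 73 to 212 with a library left out. By age they were 2689, against 4453 at the adjusted p alone and 1329 with the covariate.
Genes of the wider family called were 3 in M-HSCs, against 7 with DESeq2, 6 with no filter, 1 with all 24 libraries, 1 with the covariate and 1 to 2 with a library left out. In MPP3 cells they were 1, against 2 at the adjusted p alone, 4 with DESeq2, 3 by the likelihood ratio test, 2 with no filter, 6 with all 24 libraries and 1 to 2 with a library left out. In young HSCs they were 0, against 8 with DESeq2, 7 by the likelihood ratio test and 4 with no filter. In the difference they were 1, against 4 with DESeq2, 4 by the likelihood ratio test, 0 with library totals, 3 with no filter, 3 with all 24 libraries, 4 with the covariate and 0 to 3 with a library left out. By cell type they were 20, against 12 without Y-WT replicates 1 and 4. Receptors called by cell type were 5, against 2 without these libraries and 3 to 5 with a library left out.
Values near 0 changed sign. In M-HSCs Plxnd1 reached -0.00720 with the covariate and -0.021 to 0.26 with a library left out. In MPP3 cells Sema3a ran from -1.58 to 1.13, Plxna1 from -0.096 to 0.20 and Plxna3 from -0.019 to 0.35 with a library left out. In the difference Plxna2 was -0.010 with DESeq2, -0.00914 with RLE factors, -0.031 with library totals, -0.00663 with all 24 libraries and -0.33 to 0.49 with a library left out, and Plxnd1 -0.018 with library totals and -0.085 to 0.18 with a library left out. There Sema3a ran from -0.55 to 2.06, Nrp2 from -0.13 to 1.13 and Plxna1 from -0.010 to 0.30. By cell type Plxnd1 was -0.087 with library totals and -0.011 to 0.42 with a library left out. By age Plxna4 was 0.057 with no filter, 0.30 without Y-WT replicates 1 and 4 and -0.13 to 0.098 with a library left out. In MPP3 cells Sema3a had 0 to 73 counts a library, so counting error and the spread between libraries both bear on its values there.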
